A study of Mus musculus with 22 samples.

Results

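The enzymes and transporters that make foreign compounds and steroids soluble and move them out of cells were examined in the kidneys of diabetic and control mice. Members were all peaks of the study's table whose gene name belongs to the cytochrome P450 (Cyp), flavin monooxygenase (Fmo), aldehyde dehydrogenase (Aldh), aldo-keto reductase (Akr), carboxylesterase (Ces), UDP-glycosyltransferase (Ugt), sulfotransferase (Sult), glutathione transferase (Gst), hydroxysteroid dehydrogenase (Hsd), epoxide hydrolase, quinone reductase or ABC transporter families, without Cyp26b1 and the Aldh1a genes. This gave 93 of 9857 peaks, in 41 of 4909 genes and 52 of 6414 groups of overlapping peaks. No gene of the epoxide hydrolase or quinone reductase families had a peak. The rule used names and no measured value, but it was set with earlier results of these data known. Names do not guarantee the role: Abcf1 and Abcf2 belong to the ABC family by sequence but act in protein synthesis, and Hsd17b4 acts mainly on fatty acids.

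The libraries came from kidney tissue of 2 genotypes of male mice. In the 6 db/db animals both copies of the leptin receptor gene are defective, and such mice overeat, grow obese and turn diabetic, while the 5 db/m animals carry a single defective copy and served as nondiabetic controls. The titles of these libraries name no treatment, and the age of the mice when the kidneys were taken is not given in the sources used here. From each animal there was 1 IP library, made from mRNA fragments pulled down with an antibody against N4-acetylcytidine (ac4C, an acetylated base of RNA), and 1 RNA-seq library of the fragments before the pull-down. The comparison asks how transcript level and ac4C signal differ between the genotypes. In tissue with many cell types, fewer cells of a type and less RNA per cell cannot be told apart. Reads in peaks numbered 7577171 to 10293757 per IP library and 3151035 to 3352535 per RNA-seq library.

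Drug metabolism runs in phases. Cyp and Fmo enzymes add or expose an oxygen group, aldehyde dehydrogenases, reductases and esterases work on the products, Ugt, Sult and Gst enzymes attach a sugar, a sulfate or glutathione, and ABC transporters export the conjugates. In the kidney most of these enzymes are made in the proximal tubule, where in mice several of them differ between the sexes and respond to androgen.

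In db/db kidneys Ugt2b37, Ugt2b38, Cyp2j13, Hsd17b11, Cyp2a4 and Ugt3a2 fell in both kinds of library, and Cyp2j5 and Ugt3a1 passed both thresholds in RNA-seq reads only. The shared end of the Ugt1a genes and Gsta4 rose in both. A gene is represented here by its peak with the most reads, and it was called when edgeR's quasi-likelihood fit gave an adjusted p under 0.05 and a log2 fold change, db/db over db/m, of over 1 in size. No member was called in IP relative to RNA-seq reads. In each of the 10 genes called, the IP and RNA-seq changes had the same sign.

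Of the 41 genes, 2 were called higher and 6 lower in IP reads, against 1.65% and 1.87% of all genes, and 2 were called higher and 8 lower in RNA-seq reads, against 2.10% and 2.12% of all genes. These are 4.88% and 14.6% of the members in IP reads and 4.88% and 19.5% in RNA-seq reads. With the adjusted p alone and any fold, 5 members were higher and 9 lower in IP reads, where all genes gave 2.97% and 3.26%, and 6 were higher and 12 lower in RNA-seq reads, where all genes gave 5.17% and 5.56%. The values of the 2 genotypes did not overlap in 9 genes in IP reads, against 5.62% of all genes, and in 12 genes in RNA-seq reads, against 7.58%. Members were thus called more often than the genes of the table as a whole, and more of them lower than higher. The peaks that represent them also hold more reads, with a median of 7867 over all libraries against 2198 for those of all genes, and the part of depth in these shares was not tested. Counted by peak, 29 of 93 were called in IP reads (all peaks 3.32%) and 32 of 93 in RNA-seq reads (all peaks 3.95%), but 18 peaks of each count are overlapping copies of the Ugt1a region, so genes are counted below.

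**Figure D1:**
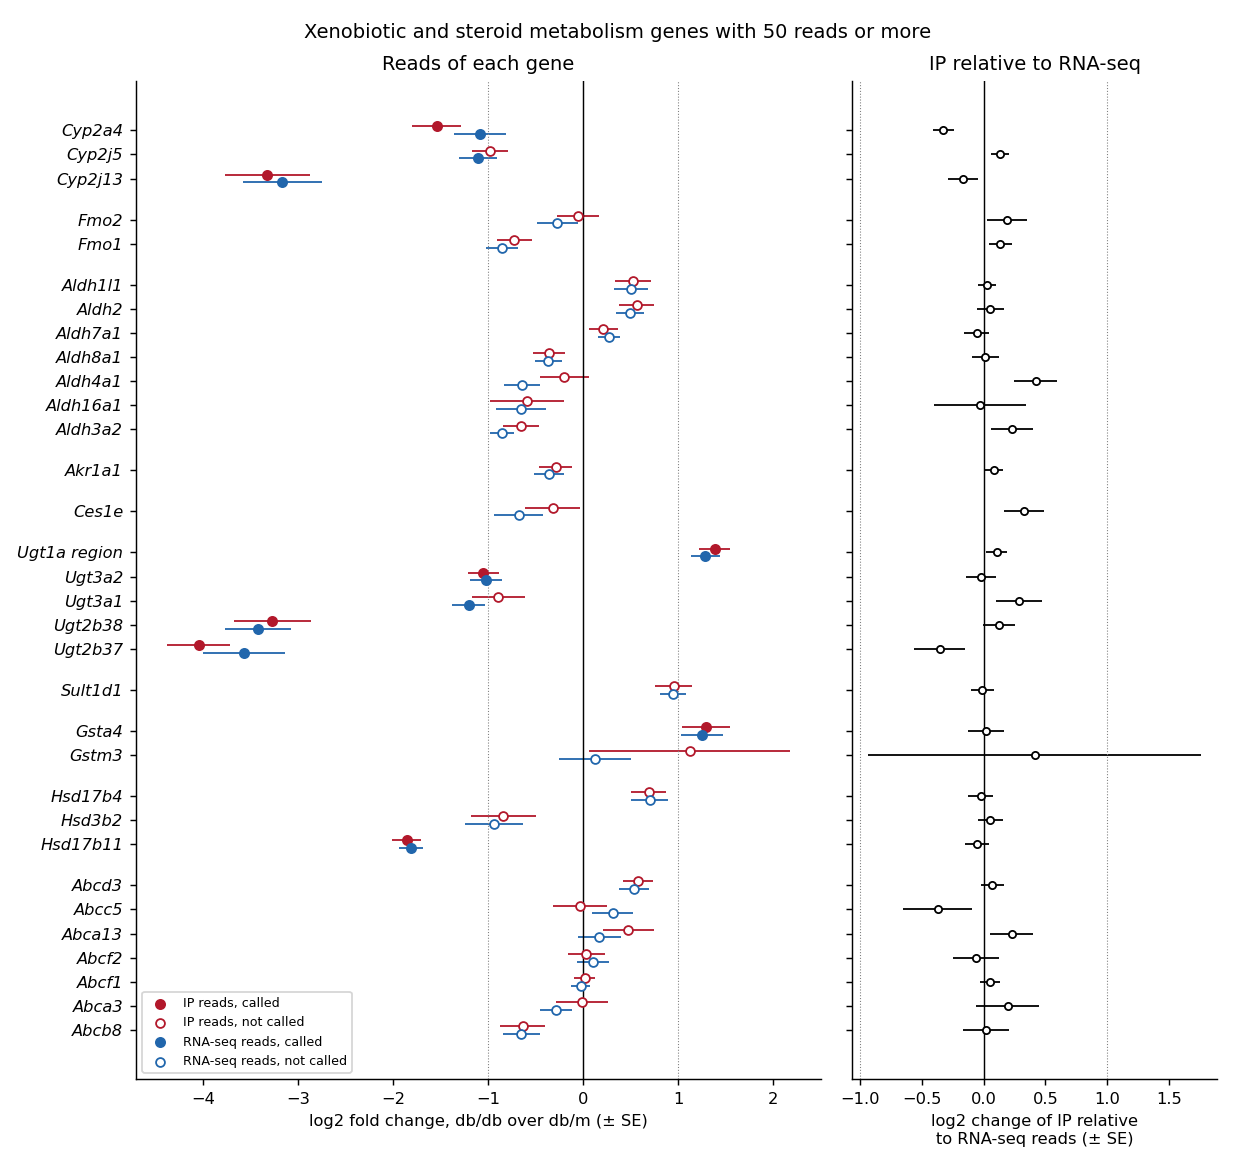
Log2 fold change of db/db over db/m mice for the 32 genes with 50 reads or more over all libraries, by family, in IP and RNA-seq reads (left) and for IP relative to RNA-seq reads (right), with bars for the standard error of the fit and filled symbols for called genes. Ugt2b37, Ugt2b38 and Cyp2j13 lie beyond -3 in both kinds of library, while no point on the right is called.

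Over the 32 genes with 50 reads or more, the median log2 fold change in IP reads was -0.25, and that in RNA-seq reads -0.36, beside -0.005 and 0.002 for the 3671 genes of the table with as many reads. The median size of the change, without its sign, was 0.65 and 0.67 in the members and 0.30 and 0.28 in all those genes. For IP relative to RNA-seq reads it was 0.10 in the members and 0.15 in all genes. The other 9 genes, Abca4, Abca5, Abcc6, Abcc8, Ces1c, Ces2a, Cyp2b10, Cyp46a1 and Sult1e1, had under 50 reads in 22 libraries together, and none of them was called in any fit. A difference in these would not have been detectable at this depth. With one peak per region, the members together took 1.5% to 1.79% of RNA-seq reads in db/db and 1.86% to 2.14% in db/m mice, which do not overlap, and 1.20% to 1.53% and 1.31% to 1.39% of IP reads, which do.

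In RNA-seq reads the falls were deepest in a pair of genes of the same family and chromosome. Ugt2b37 and Ugt2b38 encode glucuronosyltransferases, which link steroids and drugs to glucuronic acid. They lie 155 kb apart on chromosome 5, and 130 kb beyond Ugt2b38 lies the sulfotransferase gene Sult1d1, which moved the other way. The bases before the start of Ugt2b37 and Ugt2b38 are shown because these genes moved together and are near copies. They are RefSeq sequence of GRCm38.p6, 5′ to 3′ on the gene's strand, which is the minus strand for both, and capitals mark the aligned bases at which the 2 genes differ.
Ugt2b37, chr5:87254789-87255038: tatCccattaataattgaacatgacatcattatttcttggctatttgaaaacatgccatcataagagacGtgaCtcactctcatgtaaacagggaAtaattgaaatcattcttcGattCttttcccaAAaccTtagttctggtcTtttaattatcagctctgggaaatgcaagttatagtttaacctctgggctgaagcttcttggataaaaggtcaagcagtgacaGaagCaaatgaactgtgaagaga
Ugt2b38, chr5:87424204-87424453: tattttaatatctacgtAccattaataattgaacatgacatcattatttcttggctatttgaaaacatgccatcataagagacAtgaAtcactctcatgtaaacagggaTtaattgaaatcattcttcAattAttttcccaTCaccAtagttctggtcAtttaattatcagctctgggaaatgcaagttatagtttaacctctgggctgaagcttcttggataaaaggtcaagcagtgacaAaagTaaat
Ugt2b37 and Ugt2b38 were identical at 224 of 236 aligned bases (94.9%), and neither aligned to Sult1d1 beyond 61.7%. Motifs were searched on both strands of the 32851 RefSeq windows that run from 250 bases before to 50 bases after a start, which 31 of the 41 members had. Abcb8, Abcc6, Abcc8, Aldh2, Aldh7a1, Fmo1, Gsta4, Hsd17b4, Ugt1a6b and Ugt3a2 had no window and were not searched. The entries called higher, Gsta4 and Ugt1a6b, are thus not covered by this search. The HNF4 core CAAAGTCCA was in Abcd3 alone (0.475% of all windows), the STAT5 element TTCNNNGAA in Abcc5, Aldh8a1 and Fmo2 (8.30%), and the PPAR direct repeat and the NRF2 element in no member window (0.0396% and 3.04% of all). These letters were picked after the windows had been read, and a match is a description of sequence only.

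In RNA-seq reads Ugt2b37 stood at 134, 184, 152, 137 and 207 normalized CPM (reads of the peak scaled to the library's reads in all peaks, with TMM factors) in the db/m mice and at 1.90 to 40.9, median 8.63, in the db/db mice. In IP reads it stood at 65.9, 81.2, 73.9, 60.9 and 76.4 CPM in db/m and 1.34 to 9.37, median 3.76, in db/db. No db/db mouse reached the lowest db/m mouse. The log2 fold change was -3.57 (SE 0.43, adjusted p = 1.63e-05) in RNA-seq and -4.05 (SE 0.33, adjusted p = 4.70e-07) in IP reads. Its peak is 119 bases long, chr5:87254686-87254804, and crosses the gene's start.

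Ugt2b38 had 321, 481, 350, 348 and 499 CPM in RNA-seq reads of the db/m mice and 10.7 to 84.0, median 28.4, in db/db mice. Its IP level was 177, 317, 230, 286 and 282 CPM against 7.26 to 65.4, median 17.1. Again the genotypes were apart, with log2 fold changes of -3.43 (SE 0.35, adjusted p = 2.57e-06) in RNA-seq and -3.27 (SE 0.40, adjusted p = 3.46e-05) in IP reads. The peak, chr5:87424085-87424203, also begins at the gene's start. There the first transcribed bases of both genes are the same in all 36 aligned positions, so reads may have been split between them, and the separate values of the 2 genes are uncertain.

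Ugt3a1 and Ugt3a2, enzymes of the same superfamily that use sugars other than glucuronic acid, lie 20.5 kb apart on chromosome 15. Ugt3a1 had 123, 74.0, 149, 106 and 117 CPM in RNA-seq reads of db/m mice and 35.1 to 61.7, median 46.7, of db/db mice, a log2 fold change of -1.21 (SE 0.17, adjusted p = 9.60e-05). Its IP values of 21.2 to 37.8 and 7.61 to 18.4 CPM did not overlap either, but the IP change of -0.90 (SE 0.28) had an adjusted p of 0.068 and was not called. Ugt3a2 changed by -1.03 (SE 0.17, adjusted p = 0.000323) in RNA-seq and -1.05 (SE 0.16, adjusted p = 0.000365) in IP reads. This is close to the fold threshold: without db/db animal 3, db/m animal 1 or db/m animal 4 it stood at -0.97, -0.94 and -0.97 in RNA-seq and -0.993, -0.992 and -0.99 in IP reads, and without db/db animal 2 at -0.97 in RNA-seq reads, and was not called. Library sizes without TMM scaling gave -0.95 and -0.96.

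The Ugt1a region moved in the opposite direction. Its 18 peaks are named Ugt1a6b in the table, 9 from each genotype's peak list, but all lie within chr1:88218250-88218536, in the last stretch that 9 Ugt1a genes of RefSeq share, so the gene behind the reads cannot be named. The peak with the most reads had 213, 164, 204, 199 and 205 CPM in RNA-seq reads of db/m mice and 355 to 603, median 498, of db/db mice. In IP reads it had 311, 290, 313, 306 and 277 CPM against 578 to 988, median 782. All db/db mice were above all db/m mice, and the log2 fold change was 1.28 (SE 0.15, adjusted p = 1.38e-05) in RNA-seq and 1.38 (SE 0.16, adjusted p = 1.57e-05) in IP reads. Of 5 Ugt entries, then, 4 fell in RNA-seq reads and 1 rose.

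**Figure D2:**
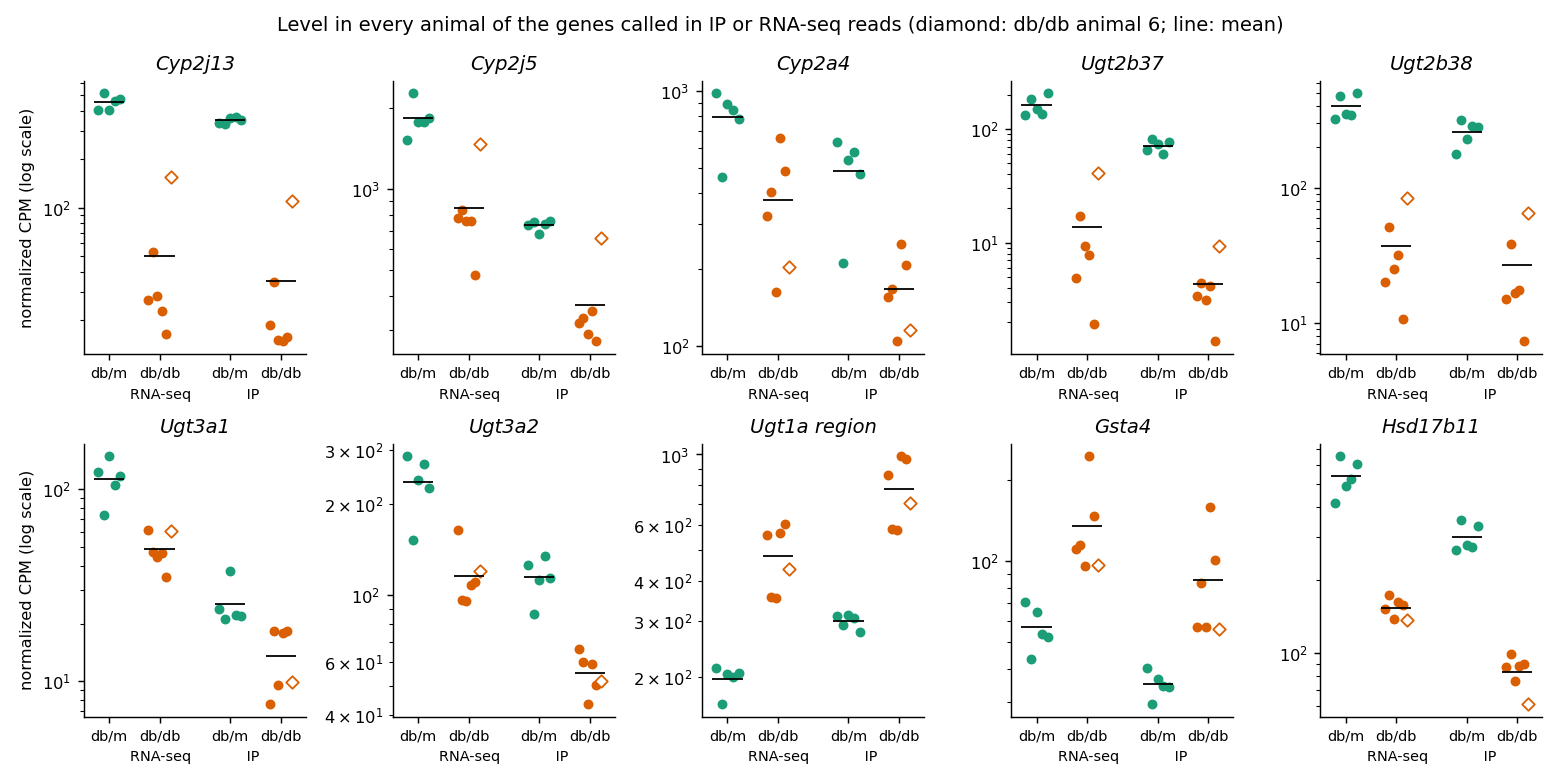
Normalized CPM, on a log axis, of the 10 genes called in IP or RNA-seq reads in each of 5 db/m and 6 db/db mice, with a line at the mean and a diamond for db/db animal 6. In Cyp2j13, Cyp2j5, Ugt2b37 and Ugt2b38 this animal is the highest of the db/db mice and lies nearest to the db/m mice.

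Sult1d1, which sulfates small phenols and amines, was the only sulfotransferase with 50 reads or more. It had 254, 318, 361, 311 and 330 CPM in RNA-seq reads of db/m mice and 427 to 723, median 642, of db/db mice, which do not overlap. The rise of 0.94 (SE 0.14, adjusted p = 0.000127) in RNA-seq reads and 0.95 (SE 0.20, adjusted p = 0.0054) in IP reads stayed just under the fold threshold. It passed without db/db animal 6, at 1.03 and 1.09, and with library sizes without TMM scaling, at 1.03 and 1.05, and in IP reads also without db/db animal 5 or db/m animal 4, at 1.04 and 1.05.

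Gsta4, a glutathione transferase that detoxifies products of lipid peroxidation, had 70.6, 43.5, 64.8, 53.6 and 52.6 CPM in RNA-seq reads of db/m mice and 96.2 to 246, median 113, of db/db mice. Its IP level was 29.5 to 40.1 CPM in db/m and 56.3 to 159 in db/db. Every db/db mouse lay above every db/m mouse. The log2 fold change was 1.25 (SE 0.22, adjusted p = 0.000802) in RNA-seq and 1.29 (SE 0.26, adjusted p = 0.00375) in IP reads, and it was 0.99 in RNA-seq reads, and not called, without db/db animal 4. Gstm3, the other transferase, had only 117 reads in all and was not called. It stood at 0.12 (SE 0.38, adjusted p = 0.888) in RNA-seq reads. In IP reads it stood at 1.12, with an SE of 1.06 that is too wide to show a difference of this size.

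Among the oxidizing enzymes, 3 Cyp genes had 50 reads or more and each fell. Cyp2j13, an arachidonic acid epoxygenase family member found mainly in male kidney, had 404, 514, 408, 462 and 478 CPM in RNA-seq reads of db/m mice and 16.4 to 155, median 27.5, of db/db mice. In IP reads the db/m values were 338, 332, 360, 367 and 350 CPM and the db/db values 14.7 to 110, median 17.2. The genotypes were far apart, with log2 fold changes of -3.17 (SE 0.42, adjusted p = 4.00e-05) and -3.33 (SE 0.44, adjusted p = 8.45e-05). A second region elsewhere in the gene, 2756 bases long, changed by -3.24 (SE 0.34) and -3.12 (SE 0.42). DESeq2 gave no adjusted p for the first region, whose values it marks as holding an outlying library. Its relative Cyp2j5, which lies 550 kb away and is an abundant epoxygenase of the proximal tubule, had 1520, 2260, 1770, 1770 and 1830 CPM in RNA-seq reads of db/m mice and 480 to 1470, median 770, of db/db mice. It changed by -1.11 (SE 0.20, adjusted p = 0.000858) in RNA-seq reads, where it was called, and by -0.99 (SE 0.19, adjusted p = 0.00291) in IP reads, where it fell short of the fold threshold. Without db/db animal 5 the RNA-seq change was -0.99 and not called, and without db/db animal 6 the IP change was -1.20 and called.

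Cyp2a4, a steroid hydroxylase, had 982, 461, 894, 845 and 777 CPM in RNA-seq reads of db/m mice and 163 to 656, median 363, of db/db mice, so the genotypes overlapped. Its IP level was 632, 212, 540, 576 and 472 CPM in db/m and 104 to 252, median 161, in db/db mice, overlapping through db/m animal 2. The log2 fold change was -1.09 (SE 0.28, adjusted p = 0.0135) in RNA-seq and -1.55 (SE 0.25, adjusted p = 0.000707) in IP reads. The RNA-seq call was lost without db/db animal 3 (-0.93), db/db animal 6 (-0.96) or db/m animal 1 (-0.997), and the IP call held in each alternative. Cyp2a4 is nearly identical to Cyp2a5, which has no peak here, and reads of the 2 genes may not have been told apart.

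Fmo1, which oxidizes nitrogen and sulfur atoms of drugs, changed by -0.86 (SE 0.17, adjusted p = 0.00241) in RNA-seq and -0.73 (SE 0.19, adjusted p = 0.0233) in IP reads. RNA-seq levels were 327 to 397 CPM in db/m and 137 to 322, median 188, in db/db mice, with no overlap. Without db/db animal 6 the RNA-seq change was -1.05 and passed the fold threshold. Fmo2, 7.71 kb away, stood at -0.27 (SE 0.22, adjusted p = 0.456) and -0.06 (SE 0.22, adjusted p = 0.936), so the test detected no change in it.

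The aldehyde dehydrogenases were split. None of the 7 genes was called by edgeR or DESeq2 in either kind of library, although 7 had an unadjusted p under 0.05 in RNA-seq and 4 in IP reads. Of all 4909 genes, edgeR gave 1201 such a p in RNA-seq and 1109 in IP reads. Aldh3a2, which oxidizes fatty aldehydes, fell without overlap in RNA-seq reads, from 74.7 to 108 CPM in db/m to 42.3 to 57.3 CPM in db/db mice (log2 fold change -0.86, SE 0.13, adjusted p = 0.000162), and by -0.66 (SE 0.19, adjusted p = 0.0456) in IP reads. Aldh4a1, an enzyme of proline breakdown, fell at its main peak in RNA-seq reads only (-0.65, SE 0.19, adjusted p = 0.0327), with -0.20 (SE 0.26, adjusted p = 0.734) in IP reads. Its second region did not pass in either, at -0.69 (SE 0.23, adjusted p = 0.0563) in RNA-seq and -0.55 (SE 0.30, adjusted p = 0.306) in IP reads. Aldh2, which clears acetaldehyde, rose in RNA-seq reads (0.49, SE 0.14, adjusted p = 0.0339) and stood at 0.56 (SE 0.18, adjusted p = 0.0818) in IP reads. The folate enzyme Aldh1l1, at 0.50 (SE 0.18, adjusted p = 0.0824) in RNA-seq reads, Aldh7a1, Aldh8a1 and Aldh16a1 did not pass.

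Akr1a1, an aldehyde reductase, and the esterase Ces1e were the sole genes of their families with 50 reads or more, and neither passed. Akr1a1 stood at -0.36 (SE 0.16, adjusted p = 0.157) in RNA-seq reads, with 1210 to 1460 CPM in db/m and 674 to 1470 CPM in db/db mice. Ces1e stood at -0.68 (SE 0.26, adjusted p = 0.102) in RNA-seq and -0.32 (SE 0.29, adjusted p = 0.581) in IP reads.

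The 3 hydroxysteroid dehydrogenases differed from each other. Hsd17b11, which acts on steroids and sits on lipid droplets, had the smallest adjusted p of any member: RNA-seq levels of 417, 652, 489, 524 and 605 CPM in db/m mice stood against 137 to 173, median 154, in db/db mice. In IP reads it had 267, 356, 280, 274 and 336 CPM against 61.1 to 98.2, median 87.7. All 6 db/db mice lay in a narrow band below the db/m mice, animal 6 included. The log2 fold change was -1.81 (SE 0.12, adjusted p = 2.21e-08) in RNA-seq and -1.86 (SE 0.15, adjusted p = 4.03e-07) in IP reads. Its second region, near the end of the gene, changed by -1.60 (SE 0.20) and -1.55 (SE 0.26). Both calls held under each alternative that kept the gene's main peak of 11676 bases.

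Hsd17b4, the peroxisomal enzyme that shortens fatty acids, rose in both kinds of library by less than the fold threshold, by 0.70 (SE 0.19, adjusted p = 0.0229) in RNA-seq and 0.69 (SE 0.19, adjusted p = 0.0309) in IP reads. Over its 6 peaks in 3 regions the change ran from 0.68 to 0.72 and from 0.69 to 0.87. Hsd3b2, of the enzymes that make and break down steroid hormones, stood at -0.94 (SE 0.31, adjusted p = 0.0579) and -0.84 (SE 0.34, adjusted p = 0.16). It varied widely among db/db mice, from 56.3 to 391 CPM in RNA-seq reads, with db/db animal 5 lowest, against 353 to 605 CPM in db/m mice. Without db/db animal 1 or 6 its RNA-seq change was -1.09 and -1.14 and called. Hsd3b genes are close copies of each other, so its reads may include those of relatives.

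Transporters of the ABC family moved little. None of 11 genes was called by edgeR or DESeq2. By edgeR, 3 had an unadjusted p under 0.05 in each kind of library. This is near the share of all 4909 genes, of which 1201 had one in RNA-seq and 1109 in IP reads. Abcd3, which carries fatty acids into peroxisomes, rose by 0.53 (SE 0.16, adjusted p = 0.0353) in RNA-seq and 0.58 (SE 0.16, adjusted p = 0.0349) in IP reads. The mitochondrial transporter Abcb8 fell in RNA-seq reads, from 38.9 to 50.7 CPM in db/m to 19.5 to 37.9 CPM in db/db mice (-0.65, SE 0.19, adjusted p = 0.0327). Abcf1, the translation factor, did not pass and stood at -0.03 (SE 0.10) and 0.01 (SE 0.11).

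Levels can be compared between genes only per length of peak, and long peaks that cross introns are diluted on this scale. In RNA-seq reads of db/m mice the highest gene of each family was Cyp2a4 at 4374 CPM per kb, Ugt2b38 at 3358, Aldh8a1 at 1231, Abca13 at 519, Ces1e at 442, Akr1a1 at 343, Hsd3b2 at 141, Sult1d1 at 112, Gsta4 at 46.3 and Fmo1 at 44.0 CPM per kb. In db/db mice Cyp2a4 stood at 2060 and Ugt2b38 at 312 CPM per kb, and the Ugt1a region, at 730 in db/m, stood at 1776 CPM per kb.

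The ac4C signal relative to transcript was tested as the change of IP over RNA-seq reads between the genotypes, with each animal compared with itself. None of 93 member peaks was called by edgeR, against 0.0203% of all peaks, which is 2 peaks. At an unadjusted p under 0.05 there were 3 member peaks by edgeR, 2 by DESeq2 and 3 by limma on differences within animals. Neither DESeq2 nor limma gave a call. Over all 9857 peaks edgeR gave 666 at that p, so the members did not exceed the share of the table. The 3 member peaks of edgeR were in Cyp2a4 (-0.33, SE 0.09, adjusted p = 0.137), Aldh4a1 (0.42, SE 0.17, adjusted p = 0.593) and Ces1e (0.33, SE 0.16, adjusted p = 0.734). For Cyp2a4 the adjusted p depended on the processing and fell under 0.05 in at least 1 alternative, with a change under the fold threshold. In the second region of Aldh4a1 the relative change was 0.08 (SE 0.18). For Ugt2b37, which fell most, the relative change was -0.36 (SE 0.21, adjusted p = 0.77), and for Hsd17b11 it was -0.05 (SE 0.10, adjusted p = 0.946). In this fit the spread of a peak's own animals gets no weight, so its standard errors rest on the trend over all peaks.

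As a level, IP over RNA-seq reads of the same animal, taken as (CPM + 1) over (CPM + 1), was below 1 in 23 of 32 member genes (71.9%) and in 38.2% of the 3671 genes with 50 reads or more. The members' median was 0.70, with quartiles of 0.53 and 1.01, and that of all genes was 1.18, with quartiles of 0.80 and 1.67. Lowest were Ugt3a1 at 0.28, Akr1a1 at 0.40 and Cyp2j5 at 0.43, and highest were Aldh16a1 and the Ugt1a region at 1.58 each and Aldh1l1 at 1.42. Ugt3a1 also had the highest fold enrichment that the authors' peak caller gave to any member region, 13.1 in a range from 1.42, and how that value was computed is not given in the sources used here. The ratio is relative to all reads in peaks of a library, so a value under 1 does not say that ac4C is absent.

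**Figure D3:**
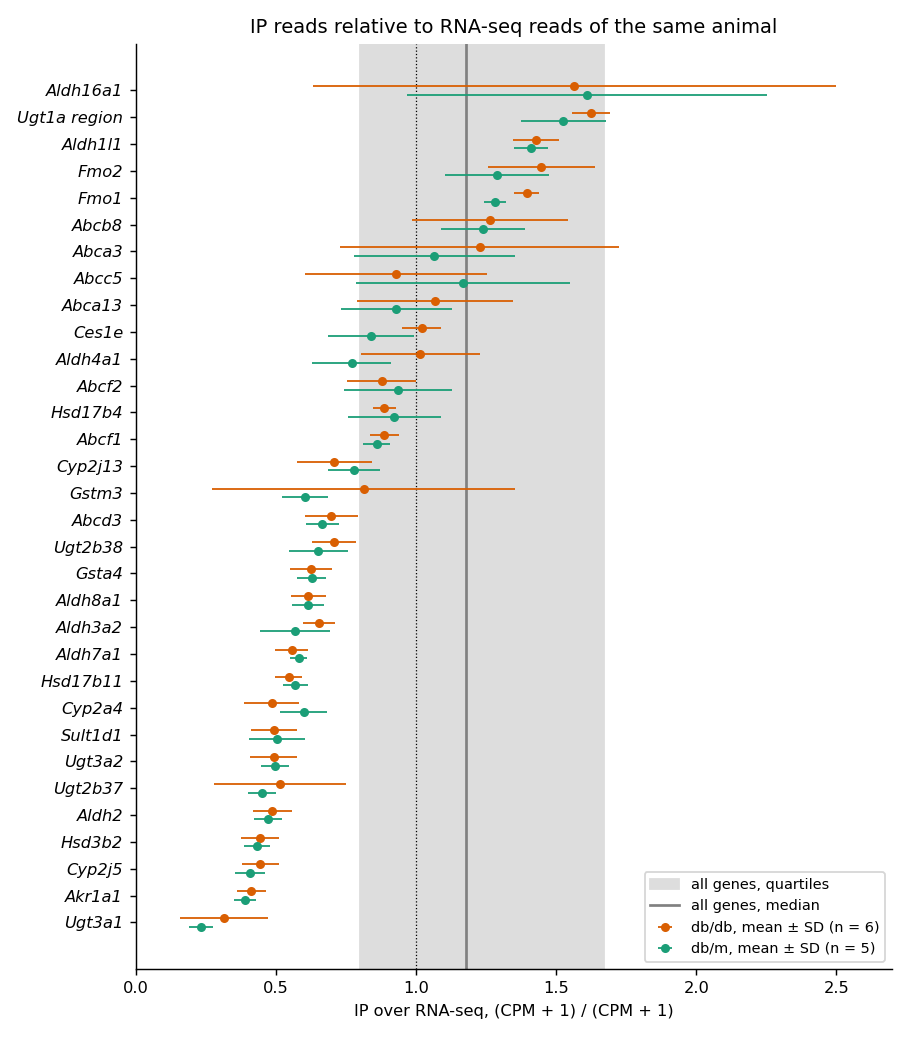
IP over RNA-seq reads of the same animal for the 32 member genes with 50 reads or more, as mean and SD over 6 db/db and 5 db/m mice, with the median and quartiles of all genes in grey. Most members lie below the median of all genes of 1.18, from Ugt3a1 at 0.28 up to 1.58. The genotypes lie close together in genes such as Aldh8a1 (0.616 in db/db and 0.614 in db/m mice). They lie further apart in others, such as Aldh4a1 (1.02 in db/db and 0.77 in db/m mice). The second region of Aldh4a1, which is not drawn, stood at 0.99 and 0.93.

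Other genes of these pathways were read from lists chosen by function. Of 36 cofactor enzymes and further drug-metabolizing enzymes 13 had a peak. In both kinds of library Cbr1, a carbonyl reductase, was called higher, at 1.93 in RNA-seq and 1.69 in IP reads. Called lower were Acy3, an aminoacylase that processes mercapturic acids (-2.63 and -2.65), Adh1, an alcohol dehydrogenase (-1.86 and -1.70), and Ggt1, which trims glutathione conjugates (-1.08 and -1.07). The electron donor of the Cyp enzymes, Por, stood at -0.01 and 0.03, with no call. The median of the list was -0.41 in RNA-seq reads, beside 0.002 for all genes with 50 reads or more.

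Of 28 regulators of these enzymes 12 had a peak, and none was called by edgeR or DESeq2. At an unadjusted p under 0.05 edgeR gave 5 in IP and 4 in RNA-seq reads, beside 1109 and 1201 of all 4909 genes. Nfe2l2 encodes NRF2, the factor that turns on antioxidant and conjugating enzymes. It rose by 0.92 (SE 0.18, adjusted p = 0.00335) in IP and 0.74 (SE 0.15, adjusted p = 0.00251) in RNA-seq reads, less than the fold threshold. Another regulator, Nr1h3, changed by -0.67 (SE 0.19, adjusted p = 0.0246) in RNA-seq reads. In IP reads Nr1h3 stood at -0.61 (SE 0.26, adjusted p = 0.178) and did not pass. Of 10 listed NRF2 targets with a peak, Cbr1 and Gsta4 were called higher and Me1 lower (-1.58 in RNA-seq reads). Of 9 listed targets of PPARA, the receptor that drives fatty acid oxidation, Fabp1 and Pdk4 were called higher in RNA-seq reads and Acaa1b and Fabp1 in IP reads. By the adjusted p alone and in RNA-seq reads, Acadl (0.65), Acaa1b (0.80), Cpt1a (0.65) and Hadha (0.78) rose too, while Acadm (-0.44) and the member Aldh3a2 (-0.86) fell, and Ces1e, also a member, stood at -0.68 and did not pass. Fabp1 had 1.21 to 16.6 CPM in RNA-seq reads of db/db mice and 0 to 0.654 CPM in db/m mice. Hnf4a, a factor of the proximal tubule, stood at -0.04 (SE 0.13) in RNA-seq reads and was not called.

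Transcripts known to be higher in male than in female mouse kidney gave the widest shift of these lists, which were chosen with earlier results of these data known. Of 10 listed, 4 had a peak, and all 4 were called lower in both kinds of library: Slco1a1, an organic anion transporter (-5.57 in RNA-seq reads), Acsm3 (-4.06), Cyp2j13, which is also a member (-3.17), and Odc1, the first enzyme of polyamine synthesis (-2.86). Their summed RNA-seq level was 1430 to 1940 CPM in db/m and 54.3 to 296 CPM in db/db mice. Of all genes, 1.87% were called lower in IP and 2.12% in RNA-seq reads. DESeq2 called 3 of the 4 in each kind of library and gave no adjusted p for Cyp2j13. All mice were male. Acsm3 overlaps its neighbour Eri2 in RefSeq, and the counts do not separate strands, so its reads are uncertain. Why these transcripts were low was not tested.

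**Figure D4:**
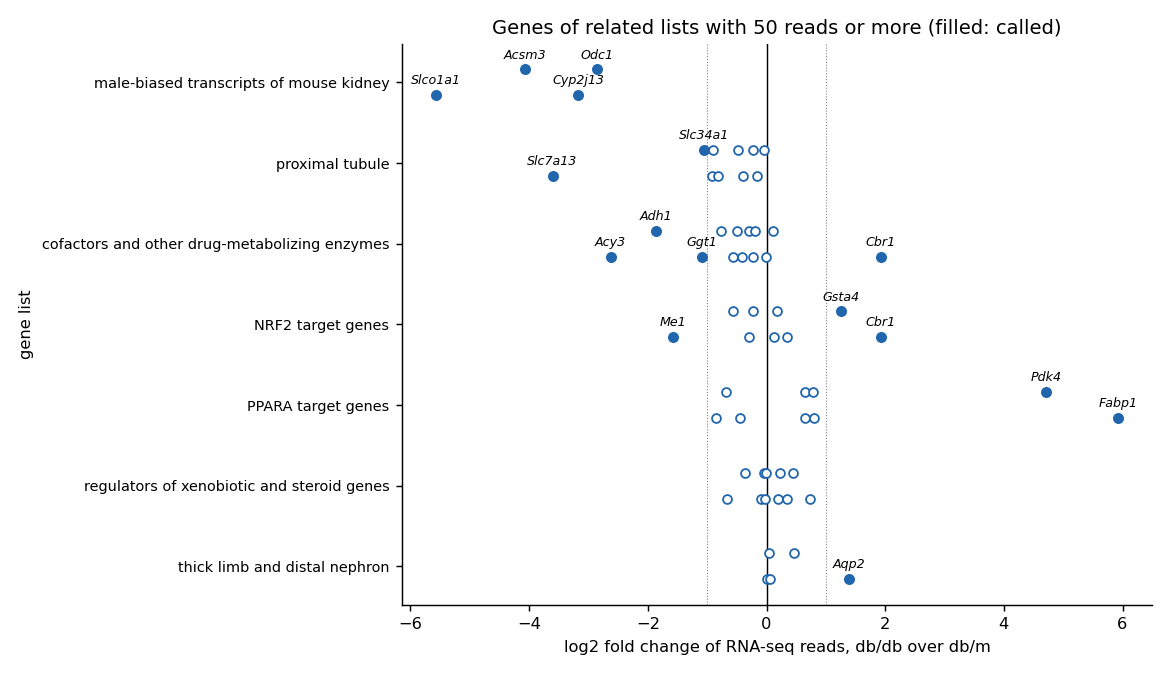
Log2 fold change of RNA-seq reads, db/db over db/m, of the genes with 50 reads or more in 7 related gene lists, 1 point per gene, filled and named where called. The 4 male-biased transcripts lie between -5.57 and -2.86, while no regulator is called; the values of Fabp1 and Pdk4 are set by db/m levels near 0.

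Some markers of the proximal tubule, the cells in which most members are made, were lower in the same mice and others were not. Of 14 listed, 10 had a peak, and 5 of these fell in RNA-seq reads by the adjusted p: Slc7a13 (-3.61, also called in IP reads) and the phosphate transporter Slc34a1 (-1.05) passed the fold threshold, and Lrp2 (-0.90), Slc22a6 (-0.81) and Slc27a2 (-0.48) did not. The other 5 did not pass, with Hnf4a at -0.04, the glucose transporter Slc5a2 at -0.16, the water channel Aqp1 at -0.23, Slc13a3 at -0.39 and Gatm at -0.93. The summed RNA-seq level of the 10 was 8930 to 9650 CPM in db/m and 4960 to 7550 CPM in db/db mice, which do not overlap, a log2 ratio of the means of -0.54. Most of this sum is Slc27a2, with a mean of 5836 CPM in db/m and 4185 CPM in db/db mice. The IP sums, 3950 to 5330 and 2450 to 4030 CPM, overlapped. The part of these markers in the members' changes was not tested. Slc7a13 is itself male-biased in mouse kidney. In RNA-seq reads it stood at 106 CPM in db/db animal 6 and at 2.21 to 11.7 CPM in the other db/db mice. DESeq2 called 1 of the 10 markers in RNA-seq and 0 in IP reads, where edgeR called 2 and 1.

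Few of the markers of other cells that had a peak were called. In the thick limb and distal nephron 5 of 11 had a peak and Aqp2, the water channel of the collecting duct, was called higher (1.38 in RNA-seq and 1.56 in IP reads), while the sums overlapped. No podocyte, endothelial and stromal, or leukocyte marker was called, with 5, 4 and 1 genes with a peak. By the adjusted p alone, the podocyte marker Synpo rose in RNA-seq reads (0.67, SE 0.21, adjusted p = 0.0449), and no other marker of these 3 lists passed. The summed RNA-seq level of the podocyte markers was 59.1 to 122 CPM in db/db and 64.3 to 78.8 CPM in db/m mice, which overlap. Adrenal cortex, fat and liver are rich in several members. Star, the sole adrenal marker with a peak, had at most 0.602 CPM in any RNA-seq library, the 3 adipocyte markers summed to at most 2.23 CPM, and of 9 hepatocyte markers none had a peak. The table holds peaks only, and transcripts of kidney cells such as Kap, Miox, Slc22a8 and Umod have none either, so a missing peak does not show missing RNA. Of 10 markers of tubular injury only Krt8 had a peak, and it rose by less than the fold threshold (0.54, SE 0.13, adjusted p = 0.0116, in RNA-seq reads).

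The db/db mice were spread in several members. Each db/db animal was placed on a log2 line for each called gene. On this line 0 was the db/m mean, and 1 was the db/db average taken without the animal being placed. The median position over the 10 genes called in RNA-seq reads was lowest in animal 6, at 0.66, and highest in animal 5, at 1.38. The others ran from 0.84 to 1.09. Over the 8 genes called in IP reads animal 6 was at 0.79, animal 5 at 1.27 and the others from 0.86 to 1.09. Without animal 5, 9 genes were called in each kind of library, with Sult1d1 added in IP reads and Cyp2j5 lost in RNA-seq reads. Without animal 6 the number of genes called was 10 in IP and 12 in RNA-seq reads, of which 3 in each were higher, and Fmo1, Hsd3b2 and Sult1d1 were added to the RNA-seq calls while Cyp2a4 was lost. The pattern did not hold in every gene: in Hsd17b11 animal 6 was the lowest of all mice, at 137 CPM in RNA-seq and 61.1 CPM in IP reads, in Cyp2a4 it was the second lowest, and in Ugt3a2 and the Ugt1a region it lay among the other db/db mice. The cause was not tested.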

How the data were processed

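Kidney mRNA was sequenced in 6 db/db animals and 5 db/m animals, before (RNA-seq, also called input) and after (IP) pull-down with an ac4C antibody, 2 libraries each. The authors aligned reads to GRCm38, called peaks in a db/db and a db/m list, and deposited raw read counts per peak and library for 9857 peaks. The aligner, peak caller and counter are not given in the sources used here. The deposited fold enrichment (a ratio) and FDR of each peak are the authors' peak caller values. The table's columns of the authors' own comparison (log2 fold change, p and FDR) were not used. Counts do not separate strands: where 2 peaks of opposite strand overlapped by 90% or more (52 cases), their read totals were within 10% of each other in 46.

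Counts were fitted in R 4.3.3 with edgeR 4.0.16 (quasi-likelihood test, TMM, no filter on low counts) over all 9857 peaks, for IP and RNA-seq libraries apart, and for IP relative to RNA-seq as the interaction of library type and genotype with a term per animal, since the titles pair the 2 libraries of a mouse. p-values were adjusted by Benjamini-Hochberg over all peaks. Alternatives used DESeq2 1.42.0, limma 3.58.1 on log2(CPM + 1), and the settings under the dependence on processing. In simulated counts with 200 changed peaks of 9857, each changed by a log2 fold change of 2 in size, the fits recovered 141 (IP), 143 (RNA-seq) and 136 (relative). Smaller changes were not simulated, so these counts do not tell how often such changes would be found. Replicates are mice named separately in the titles, and no 2 libraries of a group agreed within sampling noise (lowest chi-square per degree of freedom 3.6). Reads in peaks are not molecules, so depth covers counting error only. Peak starts were taken as counted from 0 and printed from 1. Windows before gene starts came from RefSeq GRCm38.p6 and were searched in Python 3.11.15. Which exons a peak covers was not analysed here.

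Named with values were all genes with a called peak, the gene of each family with the most RNA-seq reads per length, and further members by role. The members, gene lists and motifs were chosen with earlier results of these data known, and counting by gene was added after the 18 Ugt1a peaks had been seen.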

Additional observations from a re-analysis of the deposited data

Results flagged for a closer look

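In 13 of 128 groups of libraries, over the 32 genes with 50 reads or more, 1 animal lay far from the rest of its group by Dixon's criterion, where chance alone gives about 6.4. Of these, 5 came from db/db animal 6. It had 110.0 CPM of Cyp2j13 in IP reads, against 14.7 to 34.7 for the rest of its genotype, and 155.0 in RNA-seq reads, against 16.4 to 52.7. For Cyp2j5 it had 657.0 CPM in IP reads, against 272.0 to 352.0, and 1470.0 in RNA-seq reads, against 480.0 to 834.0. Its Fmo1 level in IP reads was 463.0 CPM, against 194.0 to 291.0. In each the animal lay on the side of the db/m mice.

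Other db/db animals stood out in 3 groups. Animal 4 had 246.0 CPM of Gsta4 in RNA-seq reads, against 96.2 to 148.0. Animal 1 had 164.0 CPM of Ugt3a2 in RNA-seq reads, where the lowest of the others had 95.1. Animal 5 had 3.13 CPM of Gstm3 in IP reads, against 0 to 0.967, which rests on few reads.

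In the db/m mice 5 groups were marked. Animal 2 had 99.2 CPM of Fmo2 in RNA-seq reads, against 39.8 to 51.7, and 164.0 CPM of the Ugt1a region, against 199.0 to 213.0. Animal 3 had 40.3 CPM of Abcb8 in IP reads, against 58.6 to 63.5, 37.8 CPM of Ugt3a1 in IP reads, against 21.2 to 23.7, and 1.64 CPM of Gstm3 in RNA-seq reads, against 1.26 to 1.28. No cause was tested for any of these.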

How the results depend on the processing

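For the 10 called genes, each IP and RNA-seq fold change kept its sign under every alternative. In the relative fit, where none was called, values of 4 of them lay on both sides of 0: Ugt2b37 from -0.50 to 0.09, Ugt3a2 from -0.10 to 0.03, Hsd17b11 from -0.09 to 0.004 and Gsta4 from -0.03 to 0.07. Cyp2a4 was below 0 in each alternative of that fit, from -0.45 to -0.26. Its lowest adjusted p among them was 0.00396, and the fold threshold kept it from a call. Without the fold threshold, 45 member peaks in 14 genes were called in IP and 51 in 18 genes in RNA-seq reads. With 1 peak per group of overlapping peaks the counts were 10 and 12 peaks, by construction, since the Ugt1a copies fall away, and 8 and 10 genes. Leaving out 1 animal at a time gave 27 to 33 peaks (7 to 10 genes) in IP and 29 to 36 peaks (8 to 12 genes) in RNA-seq reads, and 0 in the relative fit. A replicate block for the animal number of the titles gives no weight to db/db animal 6, whose number no db/m mouse has. With this block, 34 peaks in 11 genes and 37 in 13 were called. Those numbers do not pair mice of the 2 genotypes: the correlation of their deviations ran from -0.258 to 0.261 in IP and from -0.379 to 0.489 in RNA-seq reads. The relative fit gave 0 without the replicate block for the animal too. DESeq2 called 28 and 31 peaks and gave no adjusted p for Cyp2j13. Peaks of up to 1000 bases left 6 and 7 genes called, since the peaks that represent Gsta4, Hsd17b11 and Cyp2j5 are longer; Hsd17b11 keeps 2 shorter peaks, both called. Over all alternatives a call of these genes was lost 14 times, in Cyp2a4, Cyp2j5, Gsta4 and Ugt3a2. Depth limits the 9 genes with under 50 reads.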
